A study of Mus musculus with 28 samples.

Results

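The genes described here are 10 genes of the antioxidant response: Nqo1, Hmox1, Gclc, Gclm, Txnrd1, Srxn1, Slc7a11, Gpx1, Sod2 and Cat. They were chosen by name as NRF2 targets and antioxidant enzymes, and each symbol was matched to 1 Ensembl identifier among the 48709 of the count files. All 10 passed the low-count filter, which left 17009 genes for testing. RNA was sequenced from the CA1 field of the mouse hippocampus in 28 libraries. The 10 wildtype vehicle libraries came from wildtype littermates that drank water with vehicle. The 9 transgenic vehicle libraries came from CamkdeltaC transgenic mice on the same vehicle water. The 9 transgenic vorinostat libraries, called vorinostat libraries below, came from CamkdeltaC transgenic mice whose drinking water held vorinostat, also named SAHA, an inhibitor of histone deacetylases. Mice of all groups were 2 months old when drinking began and 3 months old at the end of the 4 weeks, and both sexes were used. The labels do not name the promoter of the transgene. As background, CamkdeltaC mice are known for expression of the kinase in heart muscle and for heart failure. Wildtype mice on vorinostat were not analysed here, so the drug was compared with vehicle only in transgenic mice. Whether each library stands for its own mouse is not said in the labels, and the p-values therefore cover the spread among libraries, which may be technical.

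NRF2, the product of Nfe2l2, is a transcription factor that is kept scarce by KEAP1, an adaptor that delivers it to the proteasome. When oxidants or electrophiles modify KEAP1, NRF2 accumulates, pairs with a small MAF protein and binds antioxidant response elements near its target genes, where BACH1 competes as a repressor. In brain the pathway is best known from astrocytes and other glia, which export glutathione to neurons, and it is weak in mature neurons. Of the 10 genes, Sod2, Cat and Gpx1 are also controlled by many other factors and are the less specific readouts of NRF2.

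Each library held 20230085 to 33191857 counts in all. Levels are given as CPM, a gene's counts per 1000000 counts of the TMM-scaled library total. Mitochondrially encoded genes took up 2.84 to 4.11% of counts in 24 libraries. In the remaining 4, which are vorinostat 6, vorinostat 7, vorinostat 9 and wildtype vehicle 2, they took up 6.39 to 7.48%. Hemoglobin genes stood at 75.9 to 135 CPM in those 4 libraries and at 16.9 to 52.1 CPM in the others. These 4 libraries, called the high-mitochondrial libraries below, stand apart, and the log2 fold changes of the 10 genes are given with and without them. The 7 markers of CA1 pyramidal neurons summed to 4002 to 6370 CPM and all were present, as were those of glia: astrocyte markers summed to 5573 to 7505 CPM, oligodendrocyte markers to 3283 to 7436 CPM and microglia markers to 240 to 352 CPM. A level in such bulk tissue is a sum over its cell types, so fewer cells of a type and less RNA per cell cannot be told apart.

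Antioxidant response elements were sought in the sequence around each gene's start. The search used the core TGACNNNGC on both strands, in RefSeq windows (GRCm38.p6) that reach from 250 bases before a start to 50 bases after it. Windows were used for 8 of the 10 genes, all but Hmox1 and Gclc. The core was present in 3 of the 8 genes, Srxn1, Gclm and Txnrd1 (37.5%), against 3781 of 27025 genes with a window (13.99%) and 10 of 29 genes of a wider list of NRF2 targets (34.5%). These 3 matches are shown because they are the elements that the RefSeq windows place beside the genes whose levels follow. Capitals mark the core as it lies on the gene's strand, so it reads in reverse complement:
Srxn1, chr2:152105542-152105570, plus strand: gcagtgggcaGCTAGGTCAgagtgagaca
Gclm, chr3:122245413-122245441, plus strand: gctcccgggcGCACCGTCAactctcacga
Txnrd1, chr10:82859104-82859132, plus strand: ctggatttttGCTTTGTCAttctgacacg

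Read on the opposite strand the 3 cores are TGACCTAGC, TGACGGTGC and TGACAAAGC. The first base of the match lies 28 bases after the start in Srxn1, 134 bases before it in Gclm and 92 bases before 1 of the 3 RefSeq starts in Txnrd1. None of the 3 overlaps the AP-1 site TGANTCA, a related motif that was found in 1 of the 8 genes and in 8.97% of all genes with a window. A match is a run of letters and not a shown binding site, and a window without one leaves distant elements unexamined.

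None of the 10 genes passed the threshold between any pair of groups. The test was edgeR's quasi-likelihood F test, fitted over all 17009 genes, with adjusted p by Benjamini and Hochberg and a threshold of 0.05. The members called were 0 of 10 in each of the 3 comparisons, beside 0% of all genes tested. DESeq2 and voom also called 0 of the 10. At an unadjusted p under 0.05 the members counted were 0 of 10 for transgenic vehicle against wildtype vehicle, beside 1.33% of all genes. They were 0 of 10 for vorinostat against transgenic vehicle, beside 14.4% of all genes, and 1 of 10 for vorinostat against wildtype vehicle, beside 12.6%. That 1 gene was Slc7a11.

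The fitted differences of the 10 genes were small. Their median log2 fold change was -0.0018 for transgenic vehicle against wildtype vehicle, with 5 genes above 0 and 5 below, beside a median of 0.00013 over all genes. For vorinostat against transgenic vehicle the median was 0.069, with 7 above and 3 below, beside 0.0034 over all genes. For vorinostat against wildtype vehicle it was 0.059, again 7 above and 3 below, beside 0.0064. The 2 vorinostat comparisons share the vorinostat libraries, and each vehicle group also serves in 2 comparisons, so their values are not independent. Without the 4 high-mitochondrial libraries the median of the 10 genes was 0.030 between the vehicle groups, -0.020 for vorinostat against transgenic vehicle and 0.0017 against wildtype vehicle, and 9, 5 and 5 of the 10 were above 0. Over all genes the medians were then 0.0038, -0.0033 and -0.00096.

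**Figure D1:**
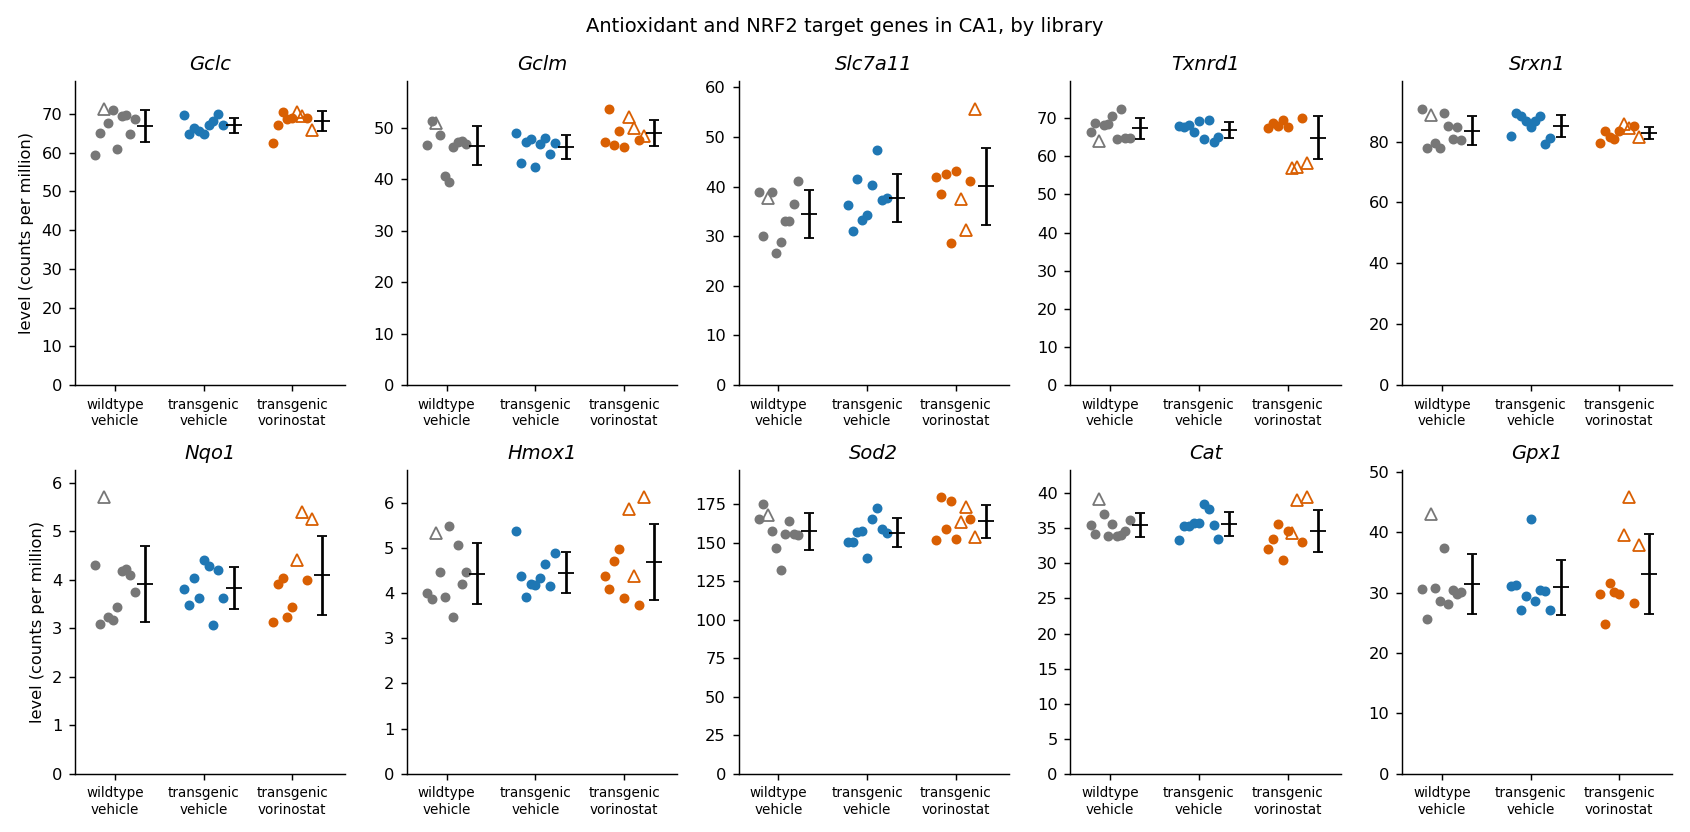
Level of each of the 10 genes in CPM (vertical axis from 0) in each library, by group. Filled points are the 24 other libraries, open triangles the 4 libraries with a high mitochondrial share, and the black mark is the group mean with its SD (n = 10, 9 and 9). The groups overlap for every gene, and the vorinostat triangles of Txnrd1 lie at 57.0 to 58.2 CPM, below all other points.

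Glutathione is made by glutamate-cysteine ligase, whose catalytic subunit is GCLC and whose modifier subunit, GCLM, lowers the amount of substrate the enzyme needs. Gclc (ENSMUSG00000032350, GRCm38 chromosome 9, 77754535 to 77794485, plus strand) lay at 59.5 to 71.4 CPM (median 68.1) in wildtype vehicle, at 64.7 to 70.1 CPM (median 67.03) in transgenic vehicle and at 62.5 to 70.5 CPM (median 68.98) in vorinostat libraries. The 3 ranges overlapped almost entirely, and the lowest and the highest library were both wildtype. Its log2 fold changes were 0.0048 for transgenic vehicle against wildtype vehicle (95% interval -0.071 to 0.081), 0.022 for vorinostat against transgenic vehicle (-0.056 to 0.10) and 0.027 for vorinostat against wildtype vehicle (-0.049 to 0.10). The edgeR adjusted p were 1, 0.777 and 0.733. Leaving out the 4 high-mitochondrial libraries gave 0.017, 0.013 and 0.031.

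Gclm (ENSMUSG00000028124, GRCm38 chromosome 3, 122245557 to 122270732, plus strand) was measured at 39.4 to 51.2 CPM (median 47.1) in wildtype vehicle, 42.4 to 48.99 CPM (median 47.01) in transgenic vehicle and 46.3 to 53.7 CPM (median 48.4) in vorinostat libraries. None of the 5 lowest libraries was a vorinostat library, while wildtype vehicle 5 and transgenic vehicle 5 held the lowest values of their groups, and the groups overlapped. The log2 fold change was 0.084 (SE 0.0473, 95% interval -0.012 to 0.18) for vorinostat against transgenic vehicle, with edgeR p = 0.0846 and adjusted p = 0.366. It was 0.076 (-0.019 to 0.17) against wildtype vehicle and -0.0087 (-0.10 to 0.085) between the vehicle groups. Without the 4 high-mitochondrial libraries these values were 0.065, 0.073 and 0.0082. With surrogate variables both vorinostat values shrank, to 0.0037 and 0.0055. The gene overlaps Gm17494 on the opposite strand, which held 3949 counts beside 32080 for Gclm over all libraries. The library kit does not keep the strand, so reads of the pair cannot be told apart where they overlap.

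SLC7A11 is the exchanger subunit that brings cystine into the cell, the source of cysteine for glutathione, in return for glutamate. Slc7a11 (ENSMUSG00000027737, GRCm38 chromosome 3, 49892526 to 50443614, minus strand) stood at 26.5 to 41.1 CPM (median 34.8) in wildtype vehicle, at 31.04 to 47.4 CPM (median 37.3) in transgenic vehicle and at 28.7 to 55.7 CPM (median 41.1) in vorinostat libraries. The medians followed the order wildtype vehicle, transgenic vehicle, vorinostat, but the ranges overlapped widely. Vorinostat 9, at 55.7 CPM, was the highest of all libraries, and vorinostat 4, at 28.7 CPM, was the second lowest. The log2 fold change for vorinostat against wildtype vehicle was 0.22 (SE 0.0975, 95% interval 0.017 to 0.42), a fold of 1.16, with edgeR p = 0.0341 and adjusted p = 0.384.

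Each step of that difference was smaller and less certain: 0.13 (-0.071 to 0.33) between the vehicle groups and 0.088 (-0.12 to 0.29) for vorinostat against transgenic vehicle. The sum of both steps gives the full difference by construction. Over 40 alternative fits the difference of Slc7a11 between vorinostat and wildtype vehicle stayed above 0, from 0.14 without vorinostat 9 to 0.26 without vorinostat 4. The 40 fits share most of their libraries and are not independent, and 9 of them leave out a transgenic vehicle library, of neither group compared. The unadjusted p of Slc7a11 in this comparison was under 0.05 in 31 of the 40, and its lowest adjusted p was 0.192. Without the 4 high-mitochondrial libraries it was 0.20 (-0.0054 to 0.41), with edgeR p = 0.0558 and adjusted p = 0.929, and the 2 steps were 0.14 and 0.058.

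TXNRD1, the cytosolic thioredoxin reductase, passes electrons from NADPH to thioredoxin. Txnrd1 (ENSMUSG00000020250, GRCm38 chromosome 10, 82833951 to 82897712, plus strand) lay at 63.96 to 72.5 CPM (median 67.2) in wildtype vehicle and at 63.8 to 69.5 CPM (median 67.7) in transgenic vehicle. In vorinostat libraries it ran from 56.99 to 70.2 CPM (median 67.7). Within the vorinostat group the 9 libraries split without overlap: vorinostat 6, 7 and 9 stood at 56.99, 57.3 and 58.2 CPM, below every other library of any group. How many of all genes split these libraries in the same way was not counted, so the split is not shown to be particular to Txnrd1. With all libraries the log2 fold change for vorinostat against transgenic vehicle was -0.044 (-0.13 to 0.046, edgeR adjusted p = 0.588), and without the 4 high-mitochondrial libraries it was 0.033 (-0.030 to 0.095), on the other side of 0. Against wildtype vehicle the pair of values was -0.052 and 0.018, and between the vehicle groups -0.0080 and -0.014. Txnrd1 overlaps Eid3 on the same strand, which held 218 counts beside 45350 for Txnrd1.

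SRXN1, sulfiredoxin, reduces over-oxidised peroxiredoxins back to their active form. Srxn1 (ENSMUSG00000032802, GRCm38 chromosome 2, 152105516 to 152111376, plus strand) lay at 78.02 to 90.8 CPM (median 82.9) in wildtype vehicle, 79.1 to 89.5 CPM (median 86.6) in transgenic vehicle and 79.6 to 85.6 CPM (median 83.3) in vorinostat libraries. The vorinostat range fell inside the wildtype range. Its log2 fold changes were 0.027 for transgenic vehicle against wildtype vehicle (95% interval -0.048 to 0.10), -0.040 for vorinostat against transgenic vehicle (-0.12 to 0.036) and -0.014 for vorinostat against wildtype vehicle (-0.089 to 0.061), with edgeR adjusted p of 1, 0.556 and 0.869. They were 0.038, -0.053 and -0.015 without the 4 high-mitochondrial libraries.

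NQO1 reduces quinones by transferring an electron pair, and HMOX1, heme oxygenase, splits heme into biliverdin, iron and carbon monoxide. Both are classical NRF2 targets and were the scarcest of the 10 genes. Nqo1 (ENSMUSG00000003849, GRCm38 chromosome 8, 107388225 to 107403206, minus strand) stood at 3.08 to 5.70 CPM (median 3.92) in wildtype vehicle, 3.07 to 4.41 CPM (median 3.81) in transgenic vehicle and 3.14 to 5.40 CPM (median 4.00) in vorinostat libraries. The highest 4 libraries of all were the 4 high-mitochondrial ones, at 4.42 to 5.70 CPM against 3.07 to 4.41 CPM in the other 24. The edge between them was a tie: vorinostat 6 stood at 4.416 CPM on 94 counts and transgenic vehicle 5 at 4.415 CPM on 114 counts. The share of all genes that order the 4 and the 24 in this way was not counted. The log2 fold change of Nqo1 for vorinostat against transgenic vehicle was 0.091 (-0.14 to 0.33, edgeR adjusted p = 0.675) with all libraries and -0.084 (-0.28 to 0.12) without those 4. Against wildtype vehicle it was 0.061 (-0.17 to 0.29) and -0.040 in the same order, and between the vehicle groups -0.031 (-0.26 to 0.20) and 0.044.

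Hmox1 (ENSMUSG00000005413, GRCm38 chromosome 8, 75093621 to 75100589, plus strand) was found at 3.48 to 5.48 CPM (median 4.33) in wildtype vehicle, 3.90 to 5.37 CPM (median 4.33) in transgenic vehicle and 3.73 to 6.12 CPM (median 4.37) in vorinostat libraries. The top library was vorinostat 9 and the next was vorinostat 6, both among the 4 high-mitochondrial ones, while vorinostat 7 lay near the group's middle. Its log2 fold changes were 0.0044 for transgenic vehicle against wildtype vehicle (95% interval -0.19 to 0.20), 0.071 for vorinostat against transgenic vehicle (-0.13 to 0.27) and 0.076 for vorinostat against wildtype vehicle (-0.12 to 0.27). The edgeR adjusted p were 1, 0.708 and 0.706, and without the 4 libraries the 2 vorinostat values were -0.053 and -0.016, below 0 in place of above it, and the value between the vehicle groups was 0.037.

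Superoxide in mitochondria is turned into hydrogen peroxide by SOD2, the manganese superoxide dismutase. Sod2 (ENSMUSG00000006818, GRCm38 chromosome 17, 13006846 to 13040063, plus strand) was at 132 to 175 CPM (median 157) in wildtype vehicle, 140 to 173 CPM (median 157) in transgenic vehicle and 152 to 179 CPM (median 163) in vorinostat libraries. The ranges overlapped, the 2 highest libraries were vorinostat 2 and 4, and wildtype vehicle 5 was the lowest of all. Its log2 fold changes were -0.0090 for transgenic vehicle against wildtype vehicle (95% interval -0.11 to 0.090), 0.066 for vorinostat against transgenic vehicle (-0.036 to 0.17) and 0.057 for vorinostat against wildtype vehicle (-0.042 to 0.16), with edgeR adjusted p of 1, 0.470 and 0.567. Without the 4 high-mitochondrial libraries the vorinostat values were 0.064 and 0.068, and that between the vehicle groups was 0.0034. With surrogate variables the vorinostat values were -0.024 and -0.027.

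Catalase, the product of Cat, splits hydrogen peroxide in peroxisomes and is abundant in red blood cells. Cat (ENSMUSG00000027187, GRCm38 chromosome 2, 103453849 to 103485160, minus strand) lay at 33.9 to 39.1 CPM (median 35.1) in wildtype vehicle, 33.3 to 38.5 CPM (median 35.5) in transgenic vehicle and 30.5 to 39.4 CPM (median 34.3) in vorinostat libraries. Wildtype vehicle 2 and vorinostat 7 and 9, of the 4 high-mitochondrial libraries, were the highest 3 of all 28 at 39.1, 39.1 and 39.4 CPM, and the 3 lowest were vorinostat libraries too. With all libraries the log2 fold change for vorinostat against transgenic vehicle was -0.040 (-0.14 to 0.055, edgeR p = 0.395, adjusted p = 0.646). Without the 4 it was -0.11 (-0.19 to -0.025), a fold of 0.929, with edgeR p = 0.0119 and adjusted p = 0.966. In that fit 664 of all 17292 genes tested had an unadjusted edgeR p under 0.05. Over 40 alternative fits the unadjusted p of Cat was under 0.05 in 2, and with 1 library left out its value ran from -0.066 to -0.020. Against wildtype vehicle the values with all libraries and without the 4 were -0.031 and -0.079, and between the vehicle groups 0.0088 and 0.027. Without the 4 libraries the log2 of summed red blood cell markers was 0.39 higher in vorinostat than in transgenic vehicle libraries, with exact permutation p = 0.0579, or p = 0.422 adjusted over 48 tests. It was 0.73 higher in vorinostat than in wildtype vehicle libraries (exact permutation p = 0.0004, adjusted p = 0.00959) and 0.35 higher in transgenic than in wildtype vehicle (exact permutation p = 0.0615, adjusted p = 0.422). These tests of markers without the 4 libraries were added after seeing the data. Over the other 24 libraries, deviations of Cat and of red blood cell markers from their group means gave Pearson r = -0.075. Its permutation p was 0.728, or 0.861 adjusted over 130 correlations. Oligodendrocyte markers, which Cat followed over the 24 libraries (r = 0.63, permutation adjusted p = 0.0498), were part of the same 48 tests. Without the 4 libraries their log2 sum was 0.15 lower in vorinostat than in transgenic vehicle libraries (exact permutation adjusted p = 0.747). Against wildtype vehicle it was 0.17 higher in transgenic vehicle and 0.020 higher in vorinostat (exact permutation adjusted p = 0.699 and 0.942). The part of blood or of oligodendrocytes in the level of Cat was not tested.

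GPX1, the cytosolic glutathione peroxidase, reduces hydrogen peroxide with glutathione. Gpx1 (ENSMUSG00000063856, GRCm38 chromosome 9, 108338903 to 108340343, plus strand) stood at 25.7 to 43.00 CPM (median 30.3) in wildtype vehicle, 27.1 to 42.3 CPM (median 30.4) in transgenic vehicle and 24.8 to 45.8 CPM (median 30.2) in vorinostat libraries. The 3 medians were nearly equal, and each group held at least 1 library well above them: the 4 high-mitochondrial ones at 37.9 to 45.8 CPM, transgenic vehicle 5 at 42.3 CPM and wildtype vehicle 5 at 37.5 CPM. Transgenic vehicle 5 was the single such library of its group. The log2 fold change of Gpx1 for vorinostat against transgenic vehicle was 0.098 (-0.11 to 0.31, edgeR adjusted p = 0.610) with all libraries and -0.091 (-0.26 to 0.076) without the 4. Against wildtype vehicle the values were 0.070 and -0.058, and between the vehicle groups -0.027 and 0.033.

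**Figure D2:**
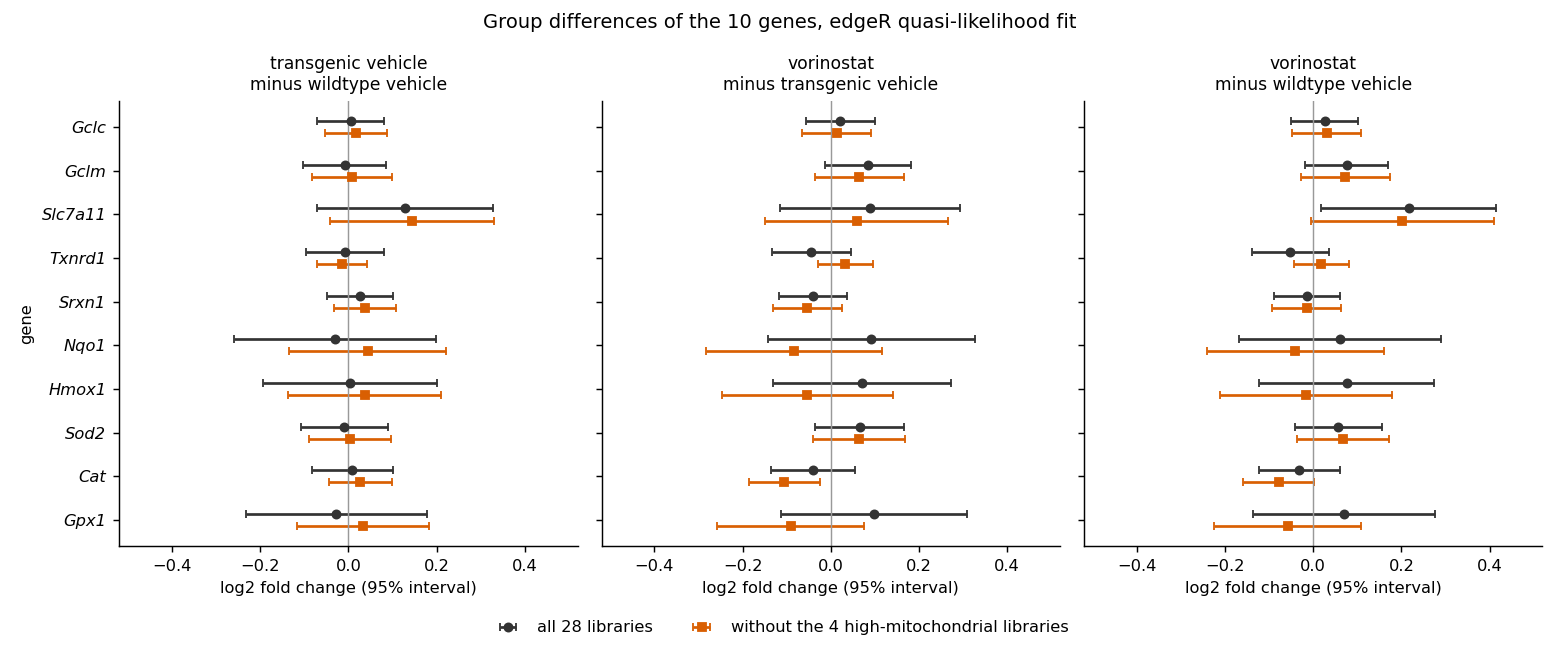
Log2 fold change (horizontal axis) with its 95% interval for each of the 10 genes in the 3 comparisons, from the edgeR fit to all 28 libraries (black circles) and without the 4 libraries of high mitochondrial share (orange squares). Nqo1, Hmox1 and Gpx1 lie above 0 in both vorinostat comparisons with all libraries and below 0 without the 4, and Txnrd1 does the opposite.

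GPX1 and TXNRD1 are selenoproteins: a UGA codon that elsewhere ends translation is read as selenocysteine, the residue that carries out the reaction. The codon is annotated in both genes by GENCODE (GRCm38). Both stretches are shown in the sense of the gene, with the codon in capitals. They were chosen as the 2 selenoenzymes among the 10, whose mean levels in the high-mitochondrial libraries lay on opposite sides of the rest:
Gpx1-201, chr9:108339451-108339453, plus strand: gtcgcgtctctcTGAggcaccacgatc
Txnrd1-205, chr10:82896037-82896039, plus strand: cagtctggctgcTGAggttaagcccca

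The coordinates are those of the codon, and 12 bases are printed on each side of it. In the 4 high-mitochondrial libraries Gpx1 averaged 41.6 ± 3.52 CPM (SD, n = 4) and in the other 24 libraries 30.2 ± 3.52 CPM. Txnrd1 averaged 59.1 ± 3.27 CPM in the 4 and 67.6 ± 2.20 CPM in the 24. Of the 4, wildtype vehicle 2 stood at 63.96 CPM of Txnrd1, inside the range of the 24, where transgenic vehicle 8 was at 63.83 CPM. These 4 were set apart by a measured value, the mitochondrial share, and are not a group of the study, so no test was made between them and the rest. Of the 4, 3 are vorinostat libraries, 1 is wildtype vehicle and none is transgenic vehicle.

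**Figure D3:**
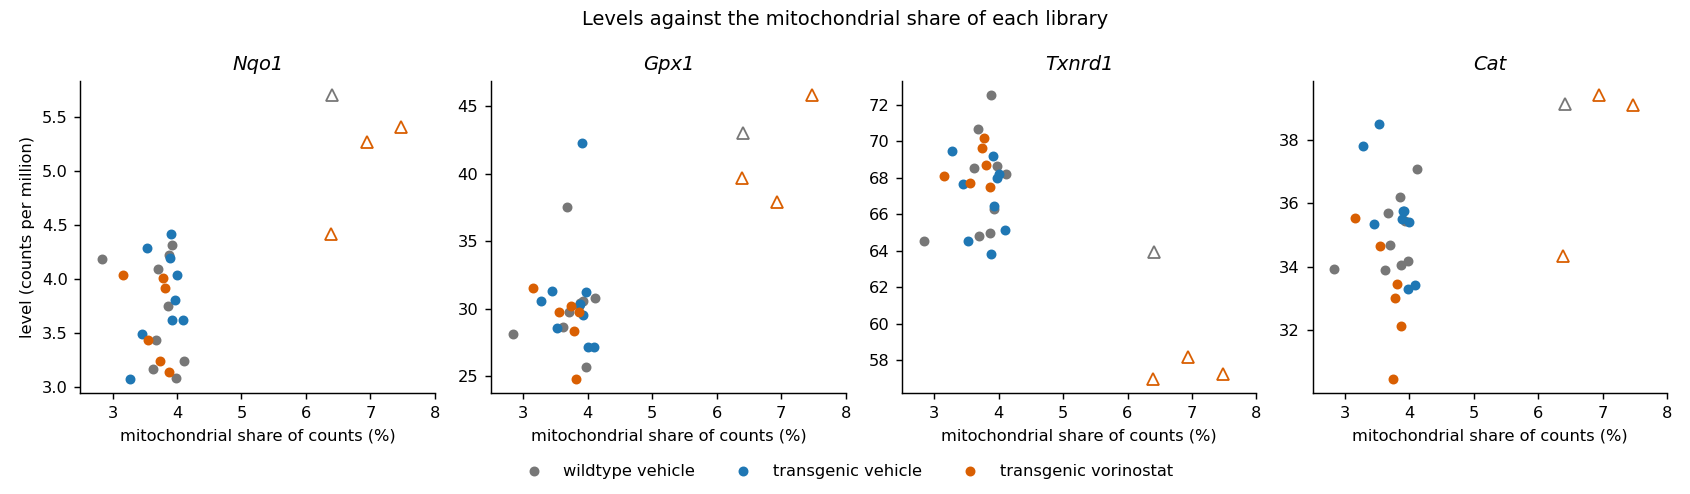
Level of Nqo1, Gpx1, Txnrd1 and Cat in CPM (vertical axis, not from 0) against the mitochondrial share of counts in each library (horizontal axis, percent), coloured by group, with the 4 high-mitochondrial libraries as open triangles. The 4 lie at 6.39 to 7.48% and hold the 4 highest levels of Nqo1, and their 3 vorinostat libraries hold the 3 lowest of Txnrd1.

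Per length of all exons, Srxn1 had the highest mean level of the 10 and Nqo1, Hmox1 and Slc7a11 the lowest. Levels were divided by the summed length of all exons of the gene, which gives CPM per kilobase. The order by mean over 28 libraries was Srxn1 at 29.7 ± 1.33 CPM per kilobase (SD, n = 28), Gpx1 at 22.1 ± 3.71, Gclc at 17.9 ± 0.7998, Sod2 at 15.9 ± 1.08 and Cat at 13.5 ± 0.826. Then came Txnrd1 at 9.37 ± 0.539, Gclm at 7.51 ± 0.500, Slc7a11 at 2.68 ± 0.445, Hmox1 at 2.58 ± 0.376 and Nqo1 at 2.54 ± 0.441 CPM per kilobase. Neighbours in this order overlapped over libraries except at 2 places, between Cat and Txnrd1 and between Gclm and Slc7a11. Among 16961 tested genes with a length, Srxn1 lay at percentile 91.5, Gpx1 at 87.7 and Gclc at 84.3, while Slc7a11, Hmox1 and Nqo1 lay at 41.5, 40.9 and 40.6.

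The choice of length moved some levels. With the longest transcript as length, Sod2 stood at 27.2, Txnrd1 at 18.3 and Gpx1 at 29.7 CPM per kilobase, which put Sod2 ahead of Gclc and Txnrd1 ahead of Cat. Gpx1 was then nearly level with Srxn1 at 29.8, and its highest library reached 42.7 against 32.3 CPM per kilobase for Srxn1. Slc7a11, Hmox1 and Nqo1 remained the last 3 under both lengths.

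**Figure D4:**
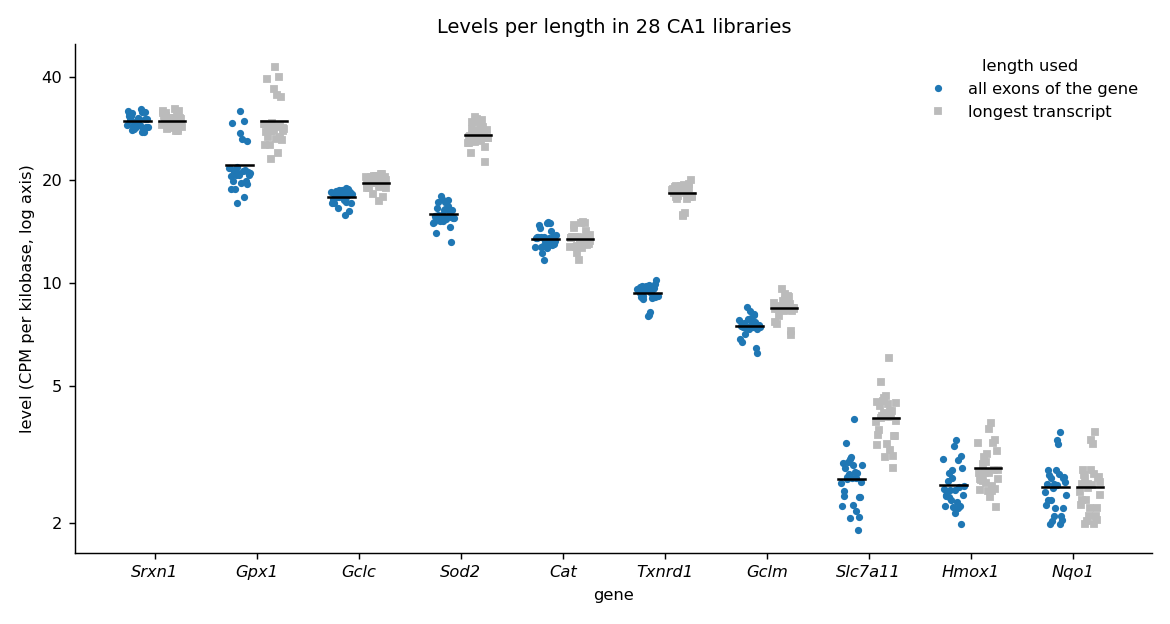
Level in CPM per kilobase (vertical log axis) of the 10 genes in 28 libraries, with the length of all exons (blue circles) or of the longest transcript (grey squares) as divisor, and black bars for the means. Slc7a11, Hmox1 and Nqo1 lie lowest with either length, and Sod2 and Txnrd1 depend most on the length used.

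The precision differed between the genes. Nqo1 and Hmox1 rested on a median of 94.5 and 107.5 counts per library, for which counting alone gives a coefficient of variation of 10.3% and 9.64%. The variation within groups was 17.7% and 14.9%. Sod2, the most deeply counted, had a median of 3803 counts, a coefficient of variation of 1.62% from counting alone and of 6.70% within groups. Slc7a11 and Gpx1 varied by 16.1% and 17.2% within groups, although counting alone gives a coefficient of variation of only 3.34% and 3.65%. Beside the 500 genes nearest in level, the SD of log2 CPM within groups lay at percentile 90.2 for Slc7a11 and 87.2 for Gpx1. It lay at percentile 5.40 for Srxn1 and 6.80 for Gclc, which were among the steadiest genes of their level.

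The genes that set NRF2 activity were also measured. Nfe2l2 was found at 11.03 to 14.7 CPM (median 13.1) in wildtype vehicle, 12.04 to 14.9 CPM (median 13.5) in transgenic vehicle and 11.2 to 16.3 CPM (median 13.1) in vorinostat libraries. Its log2 fold changes were 0.053 between the vehicle groups, 0.025 for vorinostat against transgenic vehicle and 0.078 against wildtype vehicle, with edgeR adjusted p of 1, 0.863 and 0.560. Keap1 lay at 55.1 to 65.9 CPM (median 56.99) in wildtype vehicle, 52.3 to 61.9 CPM (median 57.4) in transgenic vehicle and 45.3 to 58.7 CPM (median 55.4) in vorinostat libraries. Its log2 fold change for vorinostat was -0.090 (-0.19 to 0.0085) against transgenic vehicle and -0.10 (-0.20 to -0.0049, edgeR p = 0.0400, adjusted p = 0.387) against wildtype vehicle. Without the 4 high-mitochondrial libraries the Keap1 values were -0.016 and -0.026, and those of Nfe2l2 were -0.090 and -0.032.

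Bach1, the repressor that competes with NRF2, was at 11.46 to 16.1 CPM (median 14.9) in wildtype vehicle, 13.7 to 18.9 CPM (median 14.98) in transgenic vehicle and 13.5 to 17.7 CPM (median 15.7) in vorinostat libraries. Its log2 fold changes were 0.078, 0.025 and 0.10 in the same order of comparisons, with edgeR adjusted p of 1, 0.862 and 0.453. Sqstm1, whose product p62 binds KEAP1, had the highest CPM of the 14 regulators, 387 ± 22.8 CPM (SD, n = 28), followed by Nfe2l1 at 378 ± 28.7 and Gsk3b at 218 ± 22.4 CPM. For vorinostat against wildtype vehicle Sqstm1 was at a log2 fold change of -0.095 (-0.18 to -0.0084, edgeR p = 0.0327, adjusted p = 0.384), and at -0.044 without the 4 libraries. Against transgenic vehicle its value was -0.077 (adjusted p = 0.368). Bach2, a relative of BACH1, had the smallest p of the regulators between the vehicle groups, with a log2 fold change of 0.11 (adjusted p = 1). Of the 14 regulators 0 were called in any comparison, and 0, 0 and 3 had an unadjusted p under 0.05, or 0%, 0% and 21.4% beside 1.33%, 14.4% and 12.6% of all genes.

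A list of 34 further NRF2 targets, of which 32 were tested, showed a similar absence of calls, 0 in every comparison by edgeR. Counts at an unadjusted p under 0.05 were 0, 5 and 2 of the 32 in the order given, or 0%, 15.6% and 6.25%. The shares over all genes, 1.33%, 14.4% and 12.6%, stand beside them. Fth1, the heavy chain of the iron store ferritin, had the highest CPM at 1315 ± 199 (SD, n = 28), followed by Prdx6 at 203 ± 19.4 and Tkt at 132 ± 9.68 CPM. Tkt encodes transketolase of the pentose phosphate pathway, and its log2 fold change for vorinostat was -0.13 (-0.23 to -0.033, edgeR p = 0.0106, adjusted p = 0.345) against transgenic vehicle and -0.12 (adjusted p = 0.384) against wildtype vehicle. Idh1, a cytosolic source of NADPH, was at 0.16 (0.022 to 0.29, p = 0.0240, edgeR adjusted p = 0.345) for vorinostat against transgenic vehicle. Ugdh, which makes the sugar for glucuronidation, was at 0.12 (adjusted p = 0.384) for vorinostat against wildtype vehicle. Between the vehicle groups the smallest p were those of Cbr1, a carbonyl reductase, at -0.080, and of Gsta3, a glutathione transferase, at -0.11 (adjusted p = 1 for both).

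The 36 other antioxidant enzymes likewise held 0 calls by edgeR in each comparison, with 1, 5 and 2 at an unadjusted p under 0.05, or 2.78%, 13.9% and 5.56%. Selenow and Oxr1 had the highest CPM, at 415 ± 67.1 and 268 ± 35.6 (SD, n = 28), followed by Selenop, the secreted carrier of selenium, at 225 ± 33.8 CPM. Glrx, glutaredoxin, had the smallest p for vorinostat against transgenic vehicle, with a log2 fold change of 0.26 (0.10 to 0.41, edgeR p = 0.00216, adjusted p = 0.345). Selenop was at 0.22 (0.058 to 0.39, p = 0.00997, edgeR adjusted p = 0.345) in that comparison and at 0.20 (adjusted p = 0.384) against wildtype vehicle. Sesn2, a stress-induced sestrin, was at -0.15 (adjusted p = 0.386) for vorinostat against wildtype vehicle. Between the vehicle groups Gpx7 was at -0.30 (adjusted p = 1) on a mean of only 2.43 ± 0.546 CPM (SD, n = 28), and Glrx at -0.12.

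Of these further genes, 6 with the smallest p in a vorinostat comparison were set beside their values without the 4 high-mitochondrial libraries. Each was then closer to 0. They were chosen by p in the fit that held these libraries, and the choice itself favours such a move. Over all genes, those at an unadjusted edgeR p under 0.05 fell from 2449 to 664 against transgenic vehicle. Against wildtype vehicle they fell from 2141 to 721. The fit without the 4 tested 17292 genes and held fewer libraries, most of those lost being vorinostat libraries. The part of library number in this fall was not tested. With all 28 libraries and the mitochondrial share as covariate, the counts were 721 against transgenic vehicle and 1253 against wildtype vehicle. Glrx stood at 31.2 to 33.98 CPM in the 4 and at 21.4 to 26.8 CPM in the other 24, and without the 4 its log2 fold change for vorinostat against transgenic vehicle was 0.094 (edgeR p = 0.0344, adjusted p = 0.966). Selenop stood at 260 to 331 CPM in the 4 and at 192 to 244 CPM in the 24, and its value became 0.023. Sesn2, with 19.5 to 23.2 against 24.5 to 30.4 CPM, was lower in the 4 without overlap, and its value against wildtype vehicle became -0.041. Tkt went from -0.13 to -0.063 and Idh1 from 0.16 to 0.054 against transgenic vehicle, and Ugdh from 0.12 to 0.059 against wildtype vehicle. The share of all genes whose levels separate the 4 from the 24 was not counted. The part of the mitochondrial share in these levels was not tested.

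Within groups, Gclm and Sod2 varied together. Over the 24 libraries other than the 4, deviations of log2 CPM from the group mean gave Pearson r = 0.81 (permutation p = 1e-05, the smallest that 100000 resamples can give) and Spearman rho = 0.66 (permutation p = 0.00073). Adjusted over the 45 pairs of the 10 genes these p were 0.00045 and 0.0328. Without the 2 libraries farthest from the median of Gclm, r was 0.74, and over all 28 libraries it was 0.79. Many genes were as like either of them: of all 17009 genes, 254 (1.49%) other than Sod2 had a rho with Gclm at least as high as that of Sod2, and 628 (3.69%) other than Gclm a rho with Sod2 at least as high as that of Gclm. Wildtype vehicle 5 was lowest in both genes and transgenic vehicle 5 was low in both.

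Of the 45 pairs 21 had a positive and 24 a negative r, with a median of -0.015. In 5 pairs the permutation p of Pearson's r passed the threshold after adjustment, and Gclm with Sod2 was the 1 pair that also passed by rho. Gpx1 varied against Sod2 (r = -0.67, adjusted p = 0.009, rho = -0.52, adjusted p = 0.141) and against Gclm (r = -0.64, adjusted p = 0.016, rho = -0.43, adjusted p = 0.277), by the same permutation test. Slc7a11 varied with Cat (r = 0.60, adjusted p = 0.0227, rho = 0.58, adjusted p = 0.0758), and Gclc against Srxn1 (r = -0.56, adjusted p = 0.04, rho = -0.49, adjusted p = 0.147). Without the 2 libraries farthest from the median of Gpx1, Gclm, Slc7a11 and Gclc in turn, r was -0.42, -0.68, 0.46 and -0.30 in that order. Of these only Gclm with Gpx1 still passed. In that pair the cut was by Gclm, so transgenic vehicle 5, with the highest Gpx1 deviation at 0.46, stayed in. All of these r come from relative levels within the same libraries, so scaling is shared. Gclm and Gclc, whose products form 1 enzyme, gave r = 0.12, and the classical pair Nqo1 and Hmox1 gave r = -0.21, neither past the threshold. Over all 28 libraries these r were 0.24 and 0.25, again not past it. Other pairs did pass over all 28 and are given in the last section.

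**Figure D5:**
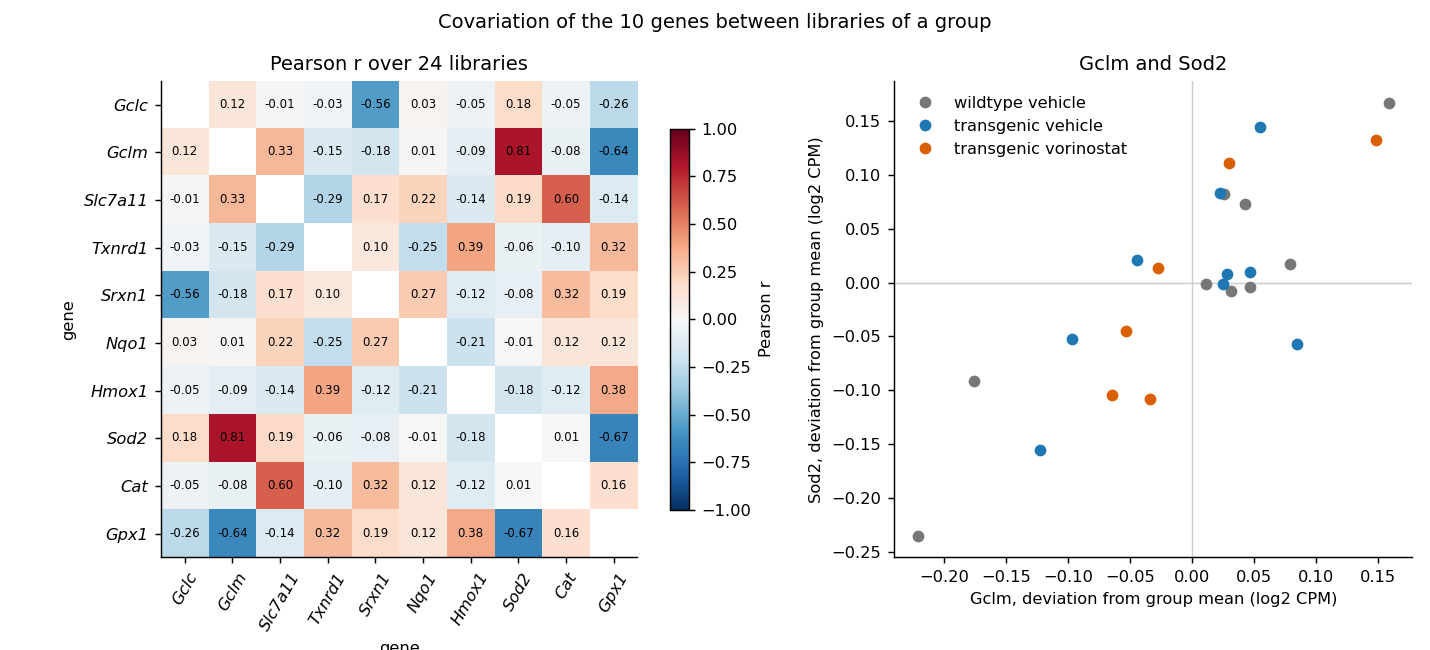
Left, Pearson r between the 10 genes over 24 libraries, from deviations of log2 CPM from the group mean, with blue for negative and red for positive r. Right, these deviations for Gclm (horizontal) and Sod2 (vertical), 1 point per library coloured by group, where r is 0.81 and wildtype vehicle 5 is the point at the lower left.

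Summed markers of cell types were set beside the genes. Over 130 correlations of the 10 genes with 13 marker lists in the 24 libraries, a family chosen with results of these data known, 3 passed the adjusted permutation p of Pearson's r and 0 that of rho. Gpx1 followed microglia markers (r = 0.61, adjusted p = 0.0498), and r was 0.39 without the 2 farthest libraries. Cat followed oligodendrocyte markers (r = 0.63) and Srxn1 went against CA1 pyramidal markers (r = -0.64), each at the same adjusted p. Without the 2 farthest, Cat gave r = 0.61 and Srxn1 r = -0.49. Between groups, 0 of 48 tests of summed markers, mitochondrial share, hemoglobin and library total passed the threshold by exact permutation with all libraries, where the smallest adjusted p was 0.0746. The part of cell types in the levels of the 10 genes was not tested.

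By the likeness of deviations over the 24 libraries, the gene most like each member by Spearman's rho was Nceh1 for Sod2 (0.93), Ndufa2 for Gpx1 (0.90), Vcl for Gclc (0.86), Pnoc for Srxn1 (0.85) and Smim10l1 for Gclm (0.84). For the others it was Mid1ip1 for Cat (0.82), Ltbp1 for Slc7a11 (0.81), Gm16701 for Nqo1 (0.80), Sln for Txnrd1 (0.75) and Rnf5 for Hmox1 (0.73). No member was the nearest gene of another among the 17009. These values are the highest of many and are a description only.

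The authors' deposited table of coexpression modules, made from 18014 genes in 14 modules, placed the 10 genes in 6 modules. In that table Gclm and Sod2 shared the lightcyan module, Hmox1 and Gpx1 the yellow, Srxn1 and Cat the blue and Nqo1 and Slc7a11 the black, while Gclc lay in the purple and Txnrd1 in the green module. The authors' deposited table gave membership scores, which are correlations with the module's main profile, of 0.920 for Gpx1, 0.845 for Txnrd1, 0.839 for Gclm, 0.824 for Srxn1 and 0.501 for Hmox1. In the authors' deposited table of adjusted expression, on a log scale whose base is not given in the sources used here, mean Slc7a11 was 5.82 in wildtype vehicle, 6.01 in transgenic vehicle and 6.18 in vorinostat libraries. The difference between the last and the first there, 0.36, was the largest of the 10 genes, and Gclm followed at 0.15. Signs in that table matched the edgeR fit for 5, 10 and 9 of the 10 genes in the 3 comparisons.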

How the data were processed

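Read counts per gene were deposited by the authors as whole numbers for each of 28 CA1 libraries (TruSeq RNA v2 kit, 50 bp single-end reads, per the labels). FastQC 0.11.5, STAR 2.5.2b, featureCounts of Subread 1.5.1 and the mm10 genome are named in the submitters' processing notes. How multi-mapping reads and strand were treated, and which annotation was used, is not given in the sources used here. Also deposited by the authors were adjusted expression values, read as log2 values although the log base is not stated, and a table of module membership scores, each with a deposited p-value that was not used. The 10 genes and all lists were chosen with earlier results of these data known.

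Counts were fitted with edgeR 4.0.16 in R 4.3.3: minimum count 10, minimum total 15, TMM scaling, robust quasi-likelihood fit, 1 model over 28 libraries and 3 contrasts, adjusted over 17009 genes. The fit was tested on simulated data. Alternatives were DESeq2 1.42.0, voom of limma 3.58.1, other scalings and filters, fits of 2 groups, replicate numbers as a block, 5 surrogate variables of sva 3.50.0, the mitochondrial share as covariate, the 4 libraries that stand apart left out, and each library left out. Log2 CPM for correlations used a prior count of 2, and permutation tests, two-sided, used scipy 1.17.1. Lengths and positions are from GENCODE M21 (GRCm38, also called mm10). The 24 libraries are all but those with over 5% of counts in mitochondrial genes. No row without a gene entered the counts, and 0 sample columns went unused.

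Genes named beside the 10 followed 1 rule: Nfe2l2, Keap1 and Bach1, and from each further list the 3 with the highest mean log2 CPM, the 2 with the smallest p in each comparison and any gene past the threshold.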

Additional observations from a re-analysis of the deposited data

Results flagged for a closer look

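In 2 of the 30 sets of values, 1 for each gene in each group, the highest library lay far from the rest of its group by Dixon's criterion at 95%, under which chance marks about 1 group in 20. Nqo1 stood at 5.70 CPM in wildtype vehicle 2, where the next library of the group was at 4.31 CPM, a gap of 0.529 of the group's range against a critical value of 0.466. This is 1 of the 4 libraries of high mitochondrial share. Gpx1 stood at 42.3 CPM in transgenic vehicle 5, where the next was at 31.3 CPM, a gap of 0.724 against 0.493. That library is not among the 4, and its mitochondrial share was 3.91%. In the same library Gclm, at 42.4 CPM, and Sod2, at 140 CPM, were the lowest of transgenic vehicle, and Nqo1, at 4.41 CPM, was the highest.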

How the results depend on the processing

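For the 10 genes, 0 of 10 passed the threshold in any comparison under any of 40 alternative fits, and the lowest adjusted p was 0.192. Of 1200 values, 1133 kept their sign and 67 changed it. The 40 fits share most of their libraries and are not independent. The count of all genes called, 0 in each comparison, was 1 with DESeq2 for vorinostat against transgenic vehicle (Igfbp4) and 0 to 1 with single libraries left out, 1 without vorinostat 3. For vorinostat against wildtype vehicle it was 1 (Zfp26) with the replicate block by title number and 0 to 3 with single libraries left out: 3 without wildtype vehicle 2 and 1 without wildtype vehicle 5. The 3 were Alas2, Hbb-bt and Hbb-bs, all of the red blood cell marker list, and the 1 without wildtype vehicle 5 was Adm. The 1 without vorinostat 3 was Igfbp4. None of the genes called is among the 10 genes, the regulators, the further NRF2 targets or the other antioxidant enzymes.

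Log2 fold changes that changed sign follow, and the cause was not tested. Without the 4 libraries that stand apart they were, between the vehicle groups, 0.0082 for Gclm, 0.033 for Gpx1, 0.044 for Nqo1 and 0.0034 for Sod2. For vorinostat against transgenic vehicle they were -0.091 for Gpx1, -0.053 for Hmox1, -0.090 for Nfe2l2, -0.084 for Nqo1 and 0.033 for Txnrd1, and against wildtype vehicle -0.058, -0.016, -0.032, -0.040 and 0.018 for the same genes. With the mitochondrial share as covariate they were 0.0079 for Gpx1 and 0.0018 for Nqo1 between the vehicle groups, -0.047 for Gpx1, -0.022 for Hmox1, -0.044 for Nfe2l2, -0.048 for Nqo1 and 0.0012 for Txnrd1 against transgenic vehicle, and -0.039 for Gpx1 and -0.046 for Nqo1 against wildtype vehicle. With surrogate variables they were -0.0024 for Gclc and 0.0019 for Gclm between the vehicle groups. For vorinostat against transgenic vehicle they were -0.0093 for Bach1, -0.0087 for Gclc, -0.044 for Hmox1, -0.027 for Nfe2l2, -0.024 for Sod2 and 0.0058 for Txnrd1, and against wildtype vehicle -0.011 for Gclc, -0.065 for Nqo1, -0.027 for Sod2 and 0.0048 for Txnrd1. Srxn1 was at 0.00031 against wildtype vehicle with library totals alone.

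Whether replicate numbers pair the libraries was not settled, since pairs of like number were not compared with pairs of unlike number. Over 27 pairs by title number the correlation of deviations ran from -0.34 to 0.41 (median 0.060), with 7 over 0.1. Over 26 pairs by description number it ran from -0.21 to 0.23 (median 0.046), with 7 over 0.1. With the replicate block by title number, Gclm was at 0.0097, Hmox1 at -0.018 and Sod2 at 0.0094 between the vehicle groups, and with the block by description number Gclc was at -0.0099 and Hmox1 at -0.0095.

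With 1 library left out, signs turned within these ranges between the vehicle groups: -0.0061 to 0.025 for Cat, -0.013 to 0.016 for Gclc, -0.034 to 0.0076 for Gclm, -0.097 to 0.032 for Gpx1, -0.033 to 0.046 for Hmox1, -0.028 to 0.013 for Keap1, -0.064 to 0.043 for Nqo1, -0.034 to 0.0089 for Sod2 and -0.016 to 0.0043 for Txnrd1. For vorinostat against transgenic vehicle they were -0.0021 to 0.064 for Bach1 and -0.0079 to 0.055 for Nfe2l2. Against wildtype vehicle they were -0.0037 to 0.13 for Gpx1, -0.00021 to 0.13 for Nqo1 and -0.024 to 9.2e-05 for Srxn1.

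With the longest transcript as length, levels were 29.7 for Gpx1, 27.2 for Sod2, 19.7 for Gclc, 18.3 for Txnrd1, 8.45 for Gclm and 4.04 CPM per kilobase for Slc7a11. Over all 28 libraries r was 0.46 for Slc7a11 with Cat, -0.35 for Gclc with Srxn1, -0.16 for Gclm with Gpx1 and -0.28 for Gpx1 with Sod2, no longer past the threshold by permutation. Without the 2 farthest libraries r was 0.46 for Slc7a11 with Cat, -0.30 for Gclc with Srxn1 and -0.42 for Gpx1 with Sod2, likewise. Added after seeing the data, the tests of markers without the 4 libraries passed for red blood cell markers (0.73) and hemoglobin (0.72, both as log2) in vorinostat against wildtype vehicle. Depth limited Nqo1 and Hmox1 most, at 63 to 127 and 78 to 185 counts per library.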
